A study of Mus musculus with 22 samples.

Results

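Actins and the proteins that bind them were followed in single cultured mouse astrocytes whose calcium response to ethanol (EtOH) had been recorded. The group held 10 genes, taken by symbol from the 23453 gene symbols of the count table. They were the actins Actb, Actg1 and Acta2, the monomer-binding proteins Tmsb4x, Tmsb10, Cfl1 and Pfn1, the filament-binding proteins Cotl1 and Tagln, and the kinase Mylk. All 10 symbols were found, and all 10 had a read in at least 5 cells, as did 12719 genes of the table.

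The study asked whether cortical astrocytes that answer EtOH with different calcium signals also differ in their transcripts. The 22 cells were C57BL/6 astrocytes cultured from the cortex of P0-P1 pups, depleted of other cells by shaking and cytosine arabinoside and kept without serum for 24 h before imaging. Each was briefly exposed to EtOH, read out with the calcium dye Fluo-4 and aspirated. The 6 S-type cells gave a slow, sustained signal, the 6 T-type cells a sharp, transient one, the 5 M-type cells a mixed one, and the 5 NR cells had no response. The NR cells had received EtOH too, so no group was unexposed. The labels give neither the pup or culture of a cell nor its collection time, and each type therefore counts as 1 sample. The paper describes an early and a late collection after EtOH, so collection time cannot be told apart from type here. No test between types was made, and differences are read against the spread of the cells.

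Actin exists as monomers and as filaments, and a cell reshapes itself by moving subunits from one pool to the other. Thymosins hold monomers in reserve, profilin hands them to growing filament ends, and cofilin severs old filaments. Actb and Actg1 encode the cytoplasmic actins of all cells. Acta2 encodes the smooth muscle actin found in contractile cells, and Tagln (transgelin) stabilizes filaments in the same cells. Mylk encodes myosin light chain kinase, which a calcium signal switches on to start contraction. Genes of contractile cells are switched on by serum response factor, which binds a sequence called the CArG box. Flat, cultured astrocytes are known for thick actin bundles.

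The table had 2937786 (T-type cell 3) to 22131076 reads per cell, of which the 10 genes took 0.193% to 2.18%. Values are given as normalized counts, the reads of a gene divided by a size factor for the cell's depth, and the level of a type is the mean over its cells. RNA was amplified in 2 rounds without molecular tags, so every interval covers counting error only. The size factors ran from 0.183 to 2.31. Both cells under 0.3 were of T-type, cells 2 and 3, and T-type cell 2 had reads in only 6319 genes against 7442 to 13070 in the others. Between 11 and 12 of 12 astrocyte markers were read in every cell, though S100b was read in only 16 cells and Gfap fell to 1.30 normalized counts in T-type. Sums of other marker lists reached 31629 for neurons (S-type) and 53340 for the oligodendrocyte lineage (T-type). They reached 74803 for fibroblast and meningeal markers and 2499 for endothelial markers, both in T-type. Most of each maximum lay in a single gene, Stmn2, Olig1, Igfbp2 and Kdr in that order. Of 16 microglia markers, 13 were read in at least 5 cells, and their sum in normalized counts reached 95.02 in S-type cells, 2404 in T-type cells, 63.2 in M-type cells and 2944 in NR cells, with lowest values of 0, 0, 5.602 and 12.1. It passed 500 in 6 cells, 3 of T-type (cells 1, 2 and 4) and 3 of NR (cells 1, 2 and 4), and in no S-type or M-type cell. In T-type cell 2 Laptm5 made up 2383 of the 2404. Of 10 mural markers 4 were read in at least 5 cells, and Rgs5 and Myh11, which define pericytes and smooth muscle, were at 0 reads in all 22 cells. The 4 read were Cnn1, in 21 cells, Notch3, in 19, Pdgfrb, in 15, and Cspg4, in 14.

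Promoter sequence was at hand for 7 of the 10 genes (RefSeq, build GRCm38.p6, from 250 bases before to 50 bases after a start site). It was searched for the CArG box, since it is a known element of actin promoters. The box is CC, then 6 bases of A or T, then GG, and reads the same on both strands. An exact box stood before the start of Actg1, and 2 boxes with 1 base off in the A/T core stood before that of Acta2. The 30 bases around each are shown 5′ to 3′ on the minus strand, with the box in capitals. The Actg1 box began 90 bases before the start, and the Acta2 boxes 84 and 34 bases before it.

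Actg1, chr11:120348566-120348595: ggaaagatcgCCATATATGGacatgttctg

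Acta2, distal, chr19:34255438-34255467: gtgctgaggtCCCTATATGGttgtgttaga

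Acta2, proximal, chr19:34255388-34255417: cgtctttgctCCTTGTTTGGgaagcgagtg

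GENCODE vM21 draws exon 1 of Acta2-201 over both Acta2 stretches, while no Actg1 exon covers the Actg1 stretch. Exons of other genes were not searched. No box of either kind was found before the starts of Tmsb4x, Tmsb10, Cfl1, Pfn1 and Mylk. The Mylk window, from position 34784700, lay inside the gene, whose annotated start at 34745210 was not searched. No window was at hand for Actb, Cotl1 and Tagln. Of 32851 promoter windows of the genome, 1.47% had an exact box before the start and 8.59% had one with at most 1 core base off. A match is a description of the letters and says nothing of binding.

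T-type had the highest level for 8 of the 10 genes by size factors and for 5 of them by CPM, a scaling of every cell to the same read total. The share of all genes with their highest level in T-type was not computed, so these counts are no result about the members. Acta2 was lowest in NR cells, and Mylk had at most 1 read in 5 of 6 T-type and none in 4 of 5 M-type cells. On the scale of 2-fold between type levels, 5 members were higher in T-type than in S-type (Tmsb4x, Tmsb10, Cfl1, Pfn1 and Cotl1) and 1 was lower (Mylk). Over all 12719 genes, 58.2% were past 2-fold in that comparison, 26% higher and 32.2% lower, so that 6 of 10 lies near the background. In T-type against NR the same 5 members and Acta2 were higher and Mylk was lower, beside 61% of all genes, 28.6% higher and 32.4% lower.

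S-type against NR had 3 members higher (Acta2, Tagln and Mylk) and none lower, beside 47.5% of all genes past 2-fold, 25.1% higher and 22.4% lower. M-type against NR had Acta2 and Tagln higher and Mylk lower, beside 47.9%, 19.8% higher and 28.1% lower. In both, 3 of 10 is below the share of all genes. The median log2 ratio of the 10 genes was 1.16 against -0.07 over all genes for T-type over S-type, and 1.44 against -0.05 for T-type over NR. Among the 2846 genes with a mean of at least 1000 normalized counts, a class that holds 7 members, the medians were 0.48 and 0.46. Tmsb10, Pfn1 and Mylk lie outside that class, so the medians of all 10 members are not like for like. The middle of the 7 members inside it was Actg1 at 0.85 for T-type over S-type and Cfl1 at 1.67 for T-type over NR. For S-type over NR the members' median was 0.23 against 0.03, and for M-type over NR 0.13 against -0.20. Comparisons that share the NR or the T-type cells are not independent of each other.

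Cells that did not overlap were rarer. Cotl1 was the single member of 10 in T-type against S-type, where 0.771% of all genes had no overlap, 0.126% higher and 0.645% lower. It was also the single one in T-type against NR, where 0.991% had none, 0.189% higher and 0.802% lower. No member separated the cells in S-type against NR, beside 0.409% of all genes (0.204% higher and 0.204% lower), or in M-type against NR, beside 0.598% (0.275% higher and 0.322% lower).

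Under CPM the median over all genes moved to -0.44 for T-type over S-type and to -0.45 for T-type over NR. The higher part of all genes past 2-fold moved from 44.6% to 30.6% and from 46.9% to 33.8%. The members then counted 4 higher and 1 lower in both comparisons, beside 54.5% of all genes past 2-fold in T-type against S-type. Without the 6 cells rich in microglia markers, 1 member was higher and 1 lower in T-type against S-type, and 3 were higher and 1 lower in T-type against NR, with 2 NR cells left. Without T-type cells 2 and 3 the counts were 4 higher and 1 lower against S-type, beside 57.9% of all genes past 2-fold. Against NR they were 5 higher and 1 lower. No share of all genes stands here beside the other counts, and they are no result about the members.

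**Figure D1:**
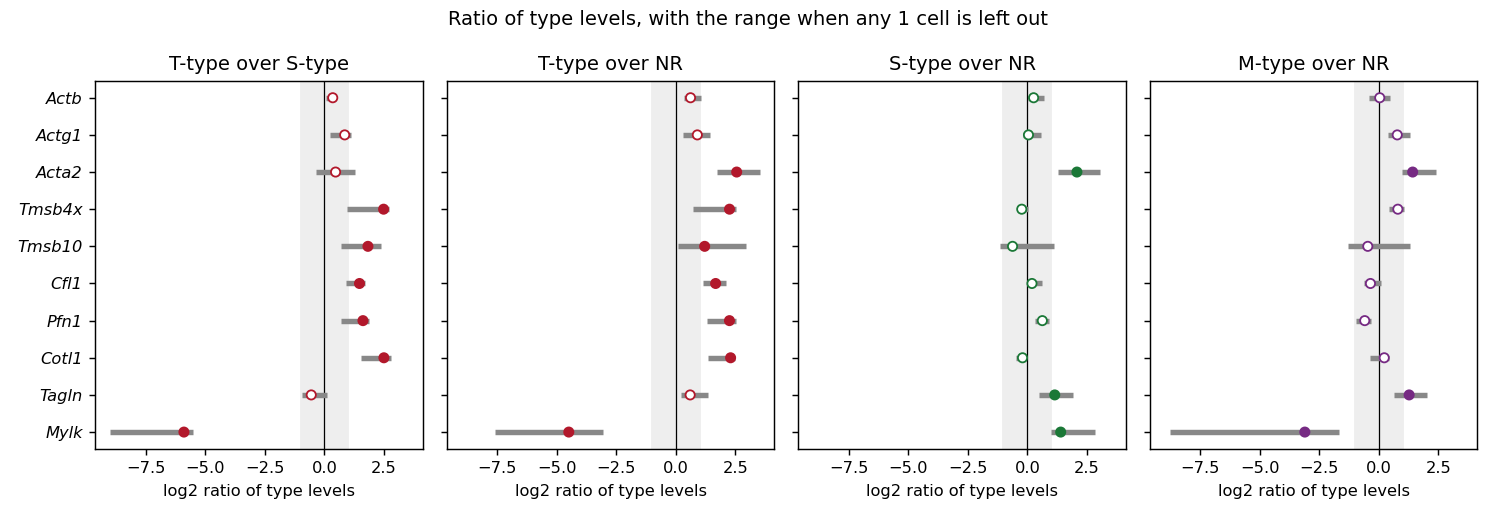
Log2 ratio of type levels of the 10 genes in the 4 comparisons, on the horizontal axis. Filled points are past 2-fold, open points within it (grey band), and the grey bar is the range of the ratio when any 1 cell is left out. The T-type panels hold 6 and 7 filled points, and the bars of Tmsb4x, Tmsb10 and Mylk are the longest there. The far ends of the Mylk bars rest on 2 T-type reads or on no M-type read.

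The cytoplasmic actins were read in every cell, and the cells of the 4 types overlapped for both genes. Actb (chromosome 5, 142903115 to 142906754) ranged from 14745 to 41216 with a median of 28738 normalized counts in S-type cells and from 15036 to 64487 with a median of 29755 in T-type cells. M-type cells had 48328, 21955, 11167, 4189 and 31733, and the NR cells 5825, 18989, 18708, 45936 and 24804. The types overlapped widely, with M-type cell 4 and NR cell 1 the lowest. Type levels of Actb were 35044 ± 22136 (SD, n = 6) for T-type, 27442 ± 10174 (SD, n = 6) for S-type, 23474 ± 17404 (SD, n = 5) for M-type and 22852 ± 14652 (SD, n = 5) for NR. No neighbours in this order differed beyond the spread of their cells. The log2 ratio of T-type over S-type was 0.35, and it turned to -0.30 under CPM. That of T-type over NR went from 0.62 to -0.04.

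Actg1 (chromosome 11, 120345690 to 120348542) was the smaller of the pair. It ranged from 806 to 4334 (median 2246) in S-type cells and from 985 to 12033 (median 3283) in T-type cells. In M-type cells Actg1 stood at 5391, 7871, 2409, 475 and 3921 normalized counts. NR cells 1 to 4 lay between 1298 and 1843, and NR cell 5 was at 5197. Its log2 ratios were 0.85 for T-type over S-type, 0.90 for T-type over NR and 0.77 for M-type over NR, all within 2-fold and inside the spread of the cells. T-type over NR was -0.28 without the 6 cells rich in microglia markers. Actg1 counts are uncertain: 54.5% of its 75-base stretches also occur in transcripts of 10 other genes, 9 of them pseudogenes, and only uniquely aligned reads had been counted. The figure was 2.6% for Actb.

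Acta2 (chromosome 19, 34241090 to 34255590) had its lowest level in the NR cells. It ranged from 1465 to 72979 (median 15752) in S-type cells and from 4255 to 103133 (median 14507) in T-type cells. The M-type cells had 18489, 29871, 9628, 229.8 and 15371 normalized counts, and the NR cells 132, 7629.6, 3338, 16193 and 203. NR cells 1 and 5 and M-type cell 4 were far below the rest, while NR cells 2 and 4 lay among the responding cells. Type levels were 32297 ± 39189 (SD, n = 6) for T-type, 23281 ± 25653 (SD, n = 6) for S-type, 14718 ± 10955 (SD, n = 5) for M-type and 5499 ± 6716 (SD, n = 5) for NR. Over NR, the log2 ratio was 2.55 for T-type, 2.08 for S-type and 1.42 for M-type. Every one of these 3 rests in part on a single bright cell: without T-type cell 1 the first was 1.72, without S-type cell 5 the second was 1.28, and without M-type cell 2 the third was 0.99, just inside 2-fold. Without NR cell 4 they were 3.51, 3.04 and 2.38. None of the 3 comparisons separated the cells fully, and they share the same NR cells. T-type over S-type was 0.47, and it was -0.36 without T-type cell 1 and -0.09 under CPM. The summed mural markers spanned 313 to 2802 among S-type cells, 0 to 1781 among T-type cells, 351 to 1245 among M-type cells and 173.6 to 1483 among NR cells, and their rho with Acta2 over the 22 cells was 0.16. Their part in the result was not tested.

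**Figure D2:**
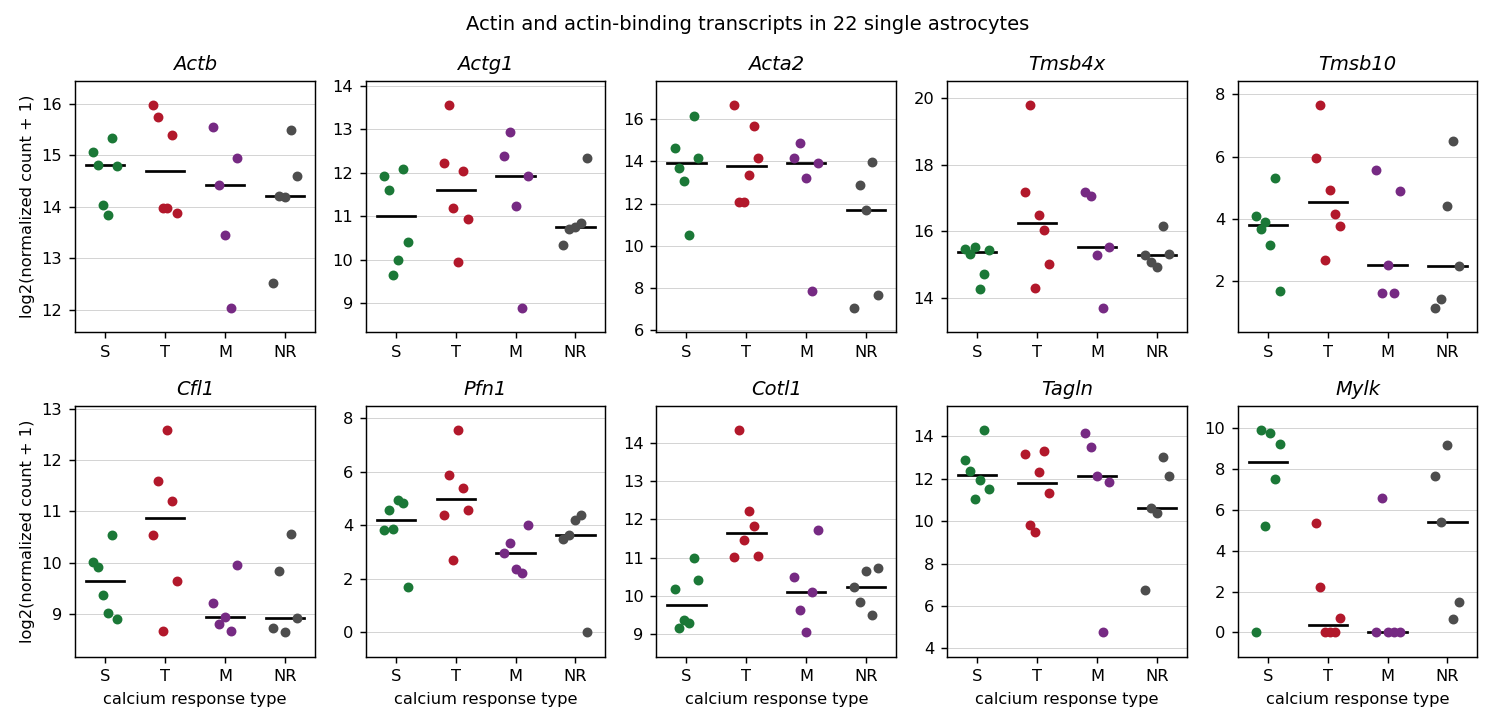
Level of each of the 10 genes in each of the 22 cells, as log2(normalized count + 1) on the vertical axis, by calcium response type on the horizontal axis (S, T, M and NR). Each point is 1 cell and each line the median of a type. All 6 T-type points of Cotl1 lie above all NR points, while Mylk has points at 0 in S-type, T-type and M-type.

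Counted within a cell, the make-up of the actin reads needs no scaling between cells. Only uniquely aligned reads were counted, though, and 54.5% of the 75-base stretches of Actg1 occur in other genes, against 2.6% for Actb. The Actb share may thus be too high in every cell, and the intervals do not cover this. Of the Actb and Actg1 reads together, Actb took between 73.6% (M-type cell 2, 95% exact binomial interval 73.2% to 74.0%) and 96.1% (NR cell 4, 96.0% to 96.3%). The mean share was 92.5% ± 2.63 (SD, n = 6) in S-type, 89.4% ± 4.44 (SD, n = 6) in T-type, 84.9% ± 7.09 (SD, n = 5) in M-type and 88.8% ± 6.28 (SD, n = 5) in NR cells. The S-type cells kept the narrowest range, 89.8% to 95.4%, and the types overlapped.

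Acta2 took from 0.672% (NR cell 5, 0.586% to 0.767%) to 61.6% (S-type cell 5, 61.3% to 61.8%) of the reads of the 3 actins. NR cells had 1.82%, 27.0%, 14.0%, 25.3% and 0.672%. In S-type cells the share ranged from 8.50% to 61.6% with a median of 35.3%, and in T-type cells from 6.08% to 59.8% with a median of 45.1%. Among M-type cells it was 25.6%, 50.04%, 41.5%, 4.70% and 30.1%. Acta2 reads outnumbered those of Actb in S-type cell 5, in T-type cells 1, 5 and 6 and in M-type cell 2, and in no NR cell.

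**Figure D3:**
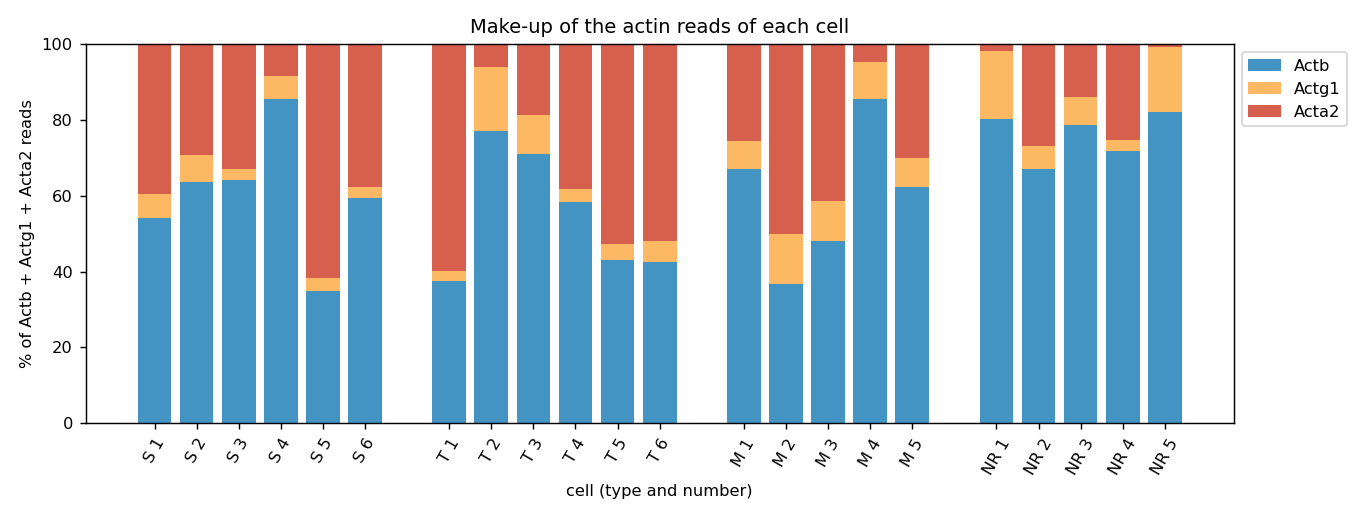
Percent of the summed Actb, Actg1 and Acta2 reads of each cell that came from each of the 3 genes, 1 stacked bar per cell on a scale from 0 to 100. NR cells 1 and 5 and M-type cell 4 show almost no Acta2, and Acta2 takes over 50% in S-type cell 5, T-type cells 1, 5 and 6 and M-type cell 2.

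Of the monomer-binding genes, Tmsb4x (chromosome X, 167207093 to 167209315), which encodes thymosin beta 4, was by far the highest. It ranked 4 among all genes by mean normalized count, a mean that T-type cell 2 raised. The median over all cells was 42808 against 23379 for Actb. Per kilobase of transcript the mean of Tmsb4x stood at 109821 normalized counts against 14359.6 for Actb. It ranged from 19912 to 47519.9 (median 42481) in S-type cells and from 20099.9 to 897854 (median 79448) in T-type cells. The M-type cells had 146909, 135679, 39696, 13344 and 47427, and the NR cells 39784, 34568, 31313, 73373 and 41211. T-type cell 2 alone carried 71.3% of the T-type sum. The log2 ratio was 2.49 for T-type over S-type and 2.25 for T-type over NR, but without T-type cell 2 these were 0.95 and 0.72. T-type cells 1, 4 and 5 still lay above every S-type cell. The microglia marker sum of these 3 cells was 763, 1695 and 0, and without the 6 cells over 500 the log2 ratios were 0.10 and 0.15. M-type cells 1 and 2, with the highest levels after T-type cells 1 and 2, had marker sums of 63.2 and 5.602. The part of these markers in the result was not tested.

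Tmsb10 (chromosome 6, 72957347 to 72958748), which encodes the close relative thymosin beta 10, gave only 621 reads in all 22 cells. S-type cells ranged from 2.23 to 39.2 (median 13) normalized counts and T-type cells from 5.45 to 199 (median 23). In M-type cells it was at 46.9, 2.1, 4.69, 2.08 and 28.9, and in NR cells at 1.21, 1.7, 20.1, 89.1 and 4.64. The types overlapped. T-type over S-type was 1.83 on the log2 scale (counting interval 1.47 to 2.19) and 0.72 without T-type cell 2. T-type over NR was 1.21 and ran from 0.10 without T-type cell 2, over values within 2-fold without NR cell 1, 2 or 5, to 2.97 without NR cell 4, the highest NR cell and also the one richest in microglia markers. Without the 6 cells over 500 normalized counts of those markers the ratios turned to -0.38 and -0.08. Tmsb10 also shares 32.8% of its 75-base stretches with other transcripts.

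Cfl1 (chromosome 19, 5490455 to 5495201) encodes cofilin 1. Its values ran from 474 to 1479 (median 809) in S-type and from 404 to 6131 (median 1915) in T-type cells. In M-type cells Cfl1 was at 592, 443, 491, 407 and 991 normalized counts, and in NR cells at 424, 918, 398, 1504 and 487. T-type was the highest type, though T-type cell 3 lay below every S-type cell. The log2 ratio was 1.48 for T-type over S-type and 1.67 for T-type over NR. Without T-type cell 4, which held 43.0% of the T-type sum, they were 0.93 and 1.12. That cell also had 1695 normalized counts of microglia markers, and without the 6 cells over 500 the ratios were 0.47 and 1.42. The part of those cells in the result was not tested. Of the 75-base stretches of Cfl1, 16.5% also lie in Gm6180 or, on the opposite strand, in Snx32.

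Pfn1 (chromosome 11, 70651850 to 70654644) encodes profilin 1 and had only 532 reads. It ranged from 2.23 to 29.8 (median 18.1) in S-type and from 5.45 to 188 (median 31.9) in T-type cells. In M-type cells Pfn1 was at 6.88, 9.1, 4.22, 3.63 and 15.1, and in NR cells at 10.3, 11.3, 17.3, 19.7 and 0. With 0 of 17676402 reads in NR cell 5, up to 3 reads could have gone unseen there. The log2 ratio of Pfn1 was 1.62 for T-type over S-type (counting interval 1.30 to 1.94) and 2.25 for T-type over NR (1.90 to 2.61). T-type cell 4 again stood out, and without it they were 0.70 and 1.33. Without the 6 cells over 500 normalized counts of microglia markers they were 0.35 and 1.42. The relative Pfn2, by contrast, had a mean of 9324 normalized counts. No 75-base stretch of Pfn1 occurs in another annotated transcript.

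Cotl1 (chromosome 8, 119809222 to 119840544) encodes coactosin-like 1, a filament-binding protein of the cofilin fold. It was the 1 member whose cells did not overlap in a comparison. T-type cells ranged from 2071 to 20791 (median 3249.8) and S-type cells from 574 to 2024 (median 909) normalized counts. The NR cells had 1210.5, 913, 1594, 722 and 1704, and the M-type cells 1436, 787, 525, 1088 and 3359. All 6 T-type cells were above all S-type and all NR cells, but M-type cell 5 lay inside the T-type range. The gap to S-type was narrow, 2071 against 2024. It closed under CPM, under trimmed-mean (TMM) factors and when cells were thinned to equal reads, and the gap to NR closed under CPM. The log2 ratio was 2.50 for T-type over S-type and 2.30 for T-type over NR, and 1.53 and 1.33 without T-type cell 2. Under CPM it was 1.51 and 1.40. Over the alternatives run, the lowest value was 1.43 for T-type over S-type and 0.80 for T-type over NR, both without the 6 cells rich in microglia markers. The summed level of the 12 astrocyte markers did not overlap between T-type and S-type cells either, at 177893 to 604607 against 74824 to 164745. Most of that sum was Vim, at 206056 in T-type against 68021.9 in S-type, and no single marker separated these cells. Of the 12, 2 were over 2-fold higher and 3 lower in T-type (Gfap at -1.96, Slc1a2 at -3.60 and S100b at -2.23), with a median log2 ratio of 0.09. The part of these markers in the result was not tested.

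**Figure D4:**
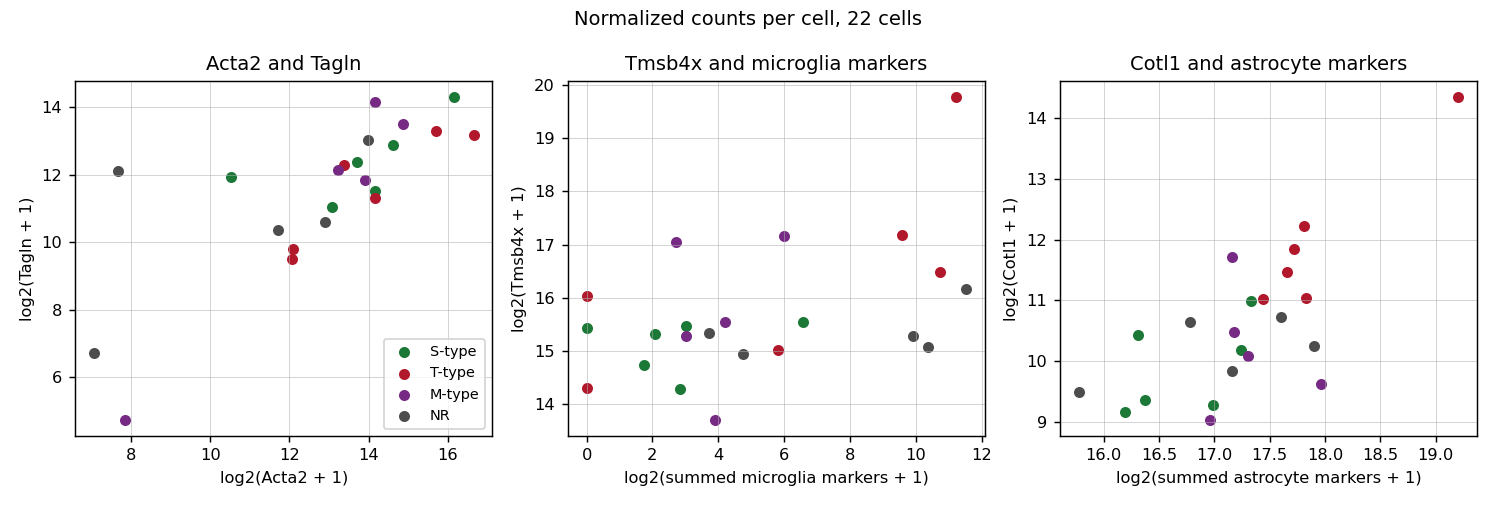
Normalized counts of 22 cells on log2(value + 1) axes, coloured by calcium response type, for Acta2 against Tagln (left), summed microglia markers against Tmsb4x (middle) and summed astrocyte markers against Cotl1 (right). Each point is 1 cell. T-type cell 2 is the highest point of the middle and right panels, and NR cell 5 stands apart on the left with 203 Acta2 and 4407 Tagln.

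Tagln (chromosome 9, 45929619 to 45936058) ranged from 2115 to 20014 (median 4591) in S-type and from 725 to 10102 (median 3774) in T-type cells. The M-type cells had 18175, 11482, 4469, 25.9 and 3670.0 normalized counts, and the NR cells 106, 1542, 1315, 8291 and 4407. NR cell 1 and M-type cell 4 were low, as for Acta2, and NR cell 5 was not. The log2 ratio over NR was 1.15 for S-type and 1.27 for M-type. It was 0.47 without S-type cell 5 and 0.65 without M-type cell 1. Without NR cell 4 the values were 1.92 and 2.04. T-type over NR was 0.60. Of its 75-base stretches, 40.9% also lie in Pcsk7 or Gm48529, which run on the opposite strand. The sources used here do not say whether counting used the strand, so reads of these genes cannot be told apart.

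The ratio of Tagln to Acta2 reads in a cell was between 0.0897 and 0.983 in 20 of the cells. S-type cell 4 had 2.68 Tagln reads for each Acta2 read, and NR cell 5 had 21.7. Both genes were thus low together in NR cell 1 and M-type cell 4, and NR cell 5 had little Acta2 beside a Tagln level near the median of S-type.

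Mylk (chromosome 16, 34745210 to 35002420) was lowest in T-type and highest in S-type. It was read in 5 of 6 S-type cells, 3 of 6 T-type cells, 1 of 5 M-type cells and 5 of 5 NR cells. S-type cells ranged from 0 to 949 with a median of 383 normalized counts. T-type cell 1 had 39.4, and the other T-type cells had at most 1 read each. M-type cell 2 had 95.2, and the other M-type cells none. The NR cells had 197, 40.8, 579, 0.598 and 1.85. T-type and M-type cells were low, and S-type and NR cells mixed high and low values. Its levels were 432 ± 417 (SD, n = 6) for S-type, 163.8 ± 246 (SD, n = 5) for NR, 19 ± 42.6 (SD, n = 5) for M-type and 7.28 ± 15.8 (SD, n = 6) for T-type. On the log2 scale T-type was at -5.89 against S-type (counting interval -6.46 to -5.38) and at -4.49 against NR. M-type was at -3.10 against NR. These rest on 30 reads in T-type, 28 of them in 1 cell, and on 136 reads in M-type, all in 1 cell. Without NR cell 3 the T-type and M-type values against NR were -3.04 and -1.66. S-type over NR was 1.40. It was 2.85 without NR cell 3 and 0.57 without the 6 cells rich in microglia markers.

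Across the 22 cells some of the genes went together in pairs. Spearman's rho of log2(normalized count + 1) was 0.79 for Acta2 and Tagln, 0.73 for Cfl1 and Pfn1, 0.71 for Actb and Actg1 and 0.71 for Actb and Tmsb10. The median over the 45 pairs of members was 0.39, and 0.31 under CPM. Mylk ran from -0.35 (with Cotl1) to 0.12 (with Pfn1). Cotl1 and Tagln had a rho of -0.05. These values are descriptions over cells that share amplification, size factor and response type.

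**Figure D5:**
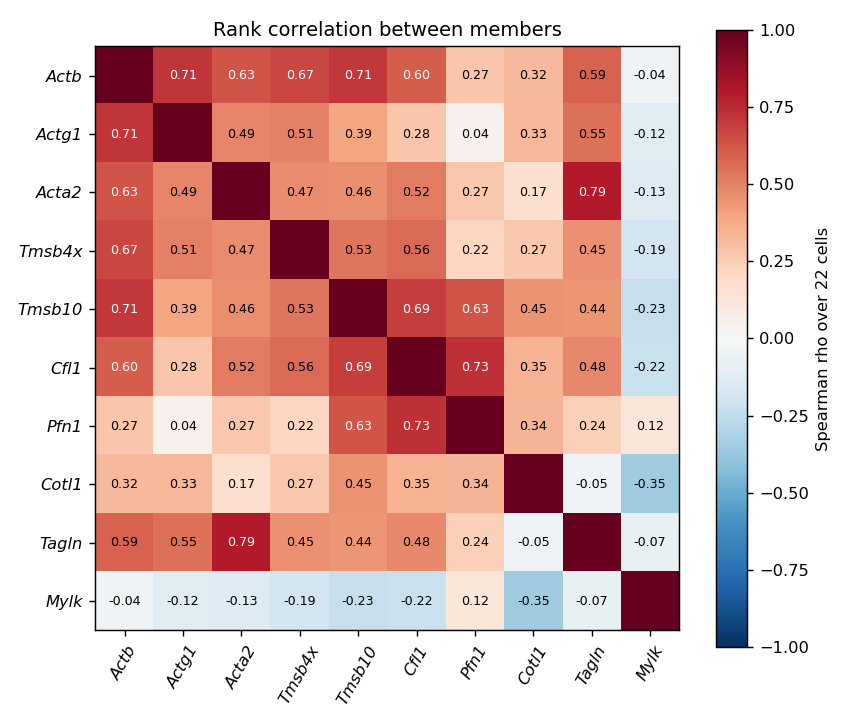
Spearman's rho between each pair of the 10 genes over 22 cells, from normalized counts on the log2 scale, with red for positive and blue for negative values. Acta2 with Tagln is the darkest pair at 0.79, and the row of Mylk is near 0 or negative.

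Among 8361 other genes with a mean of at least 100 normalized counts and a read in at least 11 cells, those most like each member were listed by rho over the 22 cells. Acta2 was followed by Seh1l (0.79), Rpl12 (0.77) and Myl9 (0.77), the last a light chain of smooth muscle myosin. Tagln was followed by Tubb6 (0.81), the calponin Cnn2 (0.80) and Stoml2 (0.78). For Cfl1 they were S100a11 (0.85), the tropomyosin Tpm1 (0.81) and Ap2m1 (0.80), and for Pfn1 S100a11 (0.85), Snrpc (0.82) and Capns1 (0.79). Tmsb10 had Eif5a (0.85), Rps10 (0.84) and S100a11 (0.83). S100a11, a small calcium-binding protein, thus came up for 3 members. These 3 also went together with each other, with a rho of 0.63 (Tmsb10 and Pfn1) to 0.73 (Cfl1 and Pfn1), so they are not separate observations. Actb was followed by Nubp1 (0.85), Pgls (0.84) and Rplp1 (0.83), Actg1 by genes that included Rps14 (0.78) and Ndufa2 (0.78), and Tmsb4x by Cacybp (0.79), Pomp (0.79) and Rpl27 (0.77). Cotl1 had Apoo (0.77), Atp5d (0.75) and Vdac1 (0.73). Mylk had Fgl2 (0.84), Tyw1 (0.80) and Fam171a2 (0.74). The lowest rho of the same search reached a similar size, from -0.70 (Mylk) to -0.86 (Actb).

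Other genes of the actin system were counted by role in T-type against NR, where 28.6% of all genes were over 2-fold higher and 32.4% lower. Over the 109 measured genes of the lists 40 were higher and 15 lower, but 18 higher and 22 lower under CPM. Whichever cell was left out, 11 of the 40 and 4 of the 15 were still past 2-fold. Without the 6 cells rich in microglia markers 33 were higher and 23 lower. No share of all genes under CPM, without those cells or with 1 cell left out stands here beside these counts. The counts under those settings are thus no result about the lists, and the same holds for the lists by role below. Against NR, Capzb and Tpm3 were the list genes with no overlap in T-type, both higher, beside 0.991% of all genes. In S-type against NR 21 of the 109 were over 2-fold higher and 12 lower, beside 25.1% and 22.4% of all genes. Actn1, Tpm3 and Csrp2 had no overlap there, all higher, beside 0.409% of all genes.

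Of the 9 subunits of the Arp2/3 complex, which starts branched filaments, 6 were higher and none lower, with a median log2 ratio of 1.27. Under CPM 3 were higher, and 2 of the 6 were past 2-fold whichever cell was left out. No share of all genes stands beside these counts. The 3 within 2-fold were the most abundant subunits, Arpc2, Arpc5 and Actr3, at 0.86, 0.68 and 0.84. Against S-type 4 of 9 were higher, beside 26% of all genes, and 1 without T-type cell 2. All 9 overlapped between the types' cells.

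Of 17 measured nucleators and activators, 4 were higher and 5 lower in T-type than in NR. Brk1, a subunit of the WAVE complex that activates Arp2/3, was at 17231 in T-type against 973 normalized counts in NR, a log2 ratio of 4.15, with overlapping cells. Without T-type cell 1 it was 2.88, and without the cells rich in microglia markers 1.78. Cyfip1 of the same complex was at 0.65 and cortactin (Cttn) at -0.57.

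Of 21 measured genes of filament turnover, 6 were higher and 3 lower. Capzb, the beta subunit of the filament-capping protein, was higher in all 6 T-type cells, 1128 to 5157, than in the 5 NR cells, 404 to 1045. Its log2 ratio was 1.41, and 0.92 without T-type cell 4. Among the most abundant of the list, Add3 was at -1.07, and at -0.64 without NR cell 5, while Capza2 was at 0.11 and Twf1 at 0.58. Of 12 measured close relatives of the members, 4 were higher and 2 lower. Cofilin 2 (Cfl2) was at 1.05, and at 0.12 without T-type cell 1, and Pfn2 (0.60) and destrin (Dstn, 0.03) were within 2-fold.

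Of 20 crosslinkers and adhesion proteins, 9 were higher and 2 lower in T-type than in NR, and 3 and 5 under CPM. Marcks was at 1.60 and stayed past 2-fold whichever cell was left out. Pls3 was at 1.31, but at -0.09 without T-type cell 1 and at -1.47 without the 6 cells rich in microglia markers, and Ezr was at 0.11. Alpha-actinin 1 (Actn1), which ties filaments into bundles, was higher in all 6 S-type cells, 6921 to 34215, than in the 5 NR cells, 3638 to 5960.

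Of 20 contractile genes, 8 were higher and none lower in T-type than in NR, and 1 was higher and 2 lower under CPM. The abundant Cald1, Cnn3 and Myl12a were at -0.26, -0.11 and 0.13. Tropomyosin 3 (Tpm3) did not overlap with NR in either T-type (2889 to 9941) or S-type cells (2926 to 6932), the NR cells lying between 754 and 2865. Both gaps were narrow, 2889 and 2926 against 2865. The log2 ratio of Tpm3 for T-type over NR was 1.36, and 0.58 under CPM.

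Of 11 measured genes around serum response factor, 3 were higher and 4 lower in T-type than in NR. Fhl1 was at 1.34, but at -0.02 without T-type cell 2 and at -1.50 without the 6 cells rich in microglia markers. Ctgf was at 0.07 and vinculin (Vcl) at -1.32. Csrp2, a LIM protein of smooth muscle, stood at 14.0 to 690.2 in S-type cells and at 0 to 1.79 in NR cells.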

How the data were processed

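RNA of 22 single astrocytes was amplified in 2 rounds, made into stranded libraries and sequenced by the authors, who aligned reads to GRCm38 with STAR and deposited raw exonic counts of uniquely aligned reads per gene symbol from VERSE, a counter built on HTSeq. Tool versions and the use of strand in counting were not given in the sources used here. Response types came from the labels. Size factors followed the median-of-ratios method on the 3670 genes read in all 22 cells, and counts divided by them were averaged over the cells of a type to give its level, with a level of 0 set to 3 reads over the type, and 4 contrasts of levels were called past 2-fold. The background was all genes read in 5 or more cells. Intervals were exact at 95% and cover counting error only. No test was made, since each type counts as 1 sample.

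Named genes were the 10 members, the 3 most abundant genes of each pathway list, per contrast the non-overlapping gene of a list with the largest ratio (mean of at least 10), and the 3 genes most like each member, of which 1 is not reported here. The members and lists were chosen with earlier results of these data known. Alternatives were CPM, TMM factors (edgeR 4.0.16 in R 4.3.3), thinning to the smallest library, other summaries over cells, a pseudocount of 1 and leaving out cells. Gene positions came from GENCODE vM21 on GRCm38. Scripts ran in Python 3.11.15 with NumPy 2.4.6, pandas 2.3.3 and SciPy 1.17.1, and were tested on simulated counts.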

Additional observations from a re-analysis of the deposited data

Results flagged for a closer look

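In 7 of 40 groups (a member in a type) 1 cell stood further from the others than Dixon's 95% limit allows, a limit that chance passes in about 1 of 20 groups. Actg1 in NR cell 5 was at 5197 normalized counts against 1298 to 1843 in the other NR cells. M-type cell 4 was the lowest of its type for Acta2, at 229.8 against 9628 to 29871, and for Tagln, at 25.9 against 3670.0 to 18175. Pfn1 was at 2.23 in S-type cell 6 against 13.3 to 29.8, and at 0 in NR cell 5 against 10.3 to 19.7. Cotl1 in T-type cell 2 was at 20791 against 2071 to 4792 in the other T-type cells. Mylk in M-type cell 2 was at 95.2 against 0 in the other M-type cells.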

How the results depend on the processing

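Leaving out 1 cell at a time, 4 to 8 members were past 2-fold in T-type against S-type, beside 55.6% to 62.0% of all genes. The counts were 5 to 9 in T-type against NR, 2 to 4 in S-type against NR and 2 to 5 in M-type against NR. No share of all genes stands here beside the ranges against NR, and they are no result about the members. With the median of the cells 3 were past 2-fold in T-type against S-type, beside 56.0% of all genes. An alternative chosen after seeing the data left out the 6 cells over 500 normalized counts of microglia markers. There 2 members were past 2-fold in T-type against S-type and 4 against NR, with no share of all genes beside them. The log2 ratio of Tmsb10 turned to -0.38 and -0.082. Then 3 members (Acta2 and Cotl1 higher, Mylk lower) did not overlap in T-type against NR, beside 16.9% of all genes with so few cells. Members with no overlap numbered 0 in T-type against S-type under CPM, TMM and thinning, and 0 in T-type against NR under CPM. The causes were not tested. The settings tried on the pathway lists were also chosen after seeing the data. Of 740 member ratios recomputed, 45 had the opposite sign of the reported ratio, 43 of them for ratios within 2-fold and the other 2 those of Tmsb10 above. Leaving out 1 cell, the mean Actb share of S-type cells ran from 91.9% to 93.0%, that of T-type cells from 88.4% to 90.9%, that of M-type cells from 83.7% to 87.8% and that of NR cells from 87.0% to 90.6%. Few reads limit what can be said of Tmsb10, Pfn1 and Mylk, with 621, 532 and 4286 in all. The rho of their levels with the total reads of a cell was -0.25, -0.43 and -0.35. No paired analysis was possible because the labels name no pup or culture and no test was made. The titles end in a number, and 7 of these 14 numbers occur in more than 1 type, but their meaning is not given and they paired no cells.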
